A study of Mus musculus with 6 samples.

Results

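*Slf1* and 6 other genes of the SMC5/6 complex, *Slf2*, *Smc5*, *Smc6*, *Nsmce1*, *Nsmce2* and *Nsmce3*, were followed across 6 libraries, 7 genes of the 31053 listed. *Slf1* was selected on its high value with RPL10A-STAMP, 1 of the 2 enzyme fusions compared. Its own difference between the fusions is therefore a description and was not tested. The other 6 were taken as genes of the same complex, with earlier results of these data known.

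The value was EPR, the number of C-to-U edits in a gene divided by the number of its reads. Ribo-STAMP fuses the cytidine deaminase rAPOBEC1 to a ribosomal protein, so that mRNAs are edited where the fused ribosomes meet them. Primary cortical neurons of C57BL/6J mouse embryos of day 18 carried an AAV with RPL10A-STAMP, in which the mouse *Rpl10a* reading frame follows APOBEC1, or RPL22-STAMP, in which *Rpl22* precedes it, with 3 libraries for each. All cultures received floxuridine at day in vitro (DIV) 3 and virus at DIV 6, were induced for 48 h with 1 μg per ml of Dox and were collected at DIV 14. Both constructs need a transactivator driven by a synapsin promoter, which is active in neurons. Libraries without an enzyme fusion were not analysed here, so the editing that a gene would show without rAPOBEC1 is unknown.

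SMC complexes are rings that hold or fold DNA and are powered by paired ATPases. Cohesin holds sister DNA molecules together, condensin compacts chromosomes, and the SMC5/6 complex acts in repair of DNA breaks and stalled replication forks and in silencing of DNA outside the chromosomes, such as viral circles. In its core, SMC5 and SMC6 form the arms, NSMCE4A bridges their heads, NSMCE1 and NSMCE3 bind that bridge as a RING and MAGE pair, and NSMCE2 attaches SUMO to target proteins. SLF1 and SLF2 bring the complex to damaged DNA through the ubiquitin ligase RAD18.

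Between 9892 and 11195 genes had an EPR above 0 in a library, 8046 of them in all 6, and the median EPR of these 8046 was 0.00907 to 0.0161. All 9 neuronal marker genes looked at were edited in all 6 libraries, as were 3 of 4 astrocyte markers, whereas both vascular markers, *Cldn5* and *Pecam1*, were at 0 in all. None of the 4 oligodendrocyte lineage and 3 microglia markers was edited in all 6. Of the former, *Mog* and *Mag* were at 0 throughout, *Olig2* was edited in all 3 RPL22-STAMP libraries (0.0185, 0.00388 and 0.0226) and in 1 RPL10A-STAMP library (0.00813), and *Pdgfra* in 1 RPL22-STAMP library (0.0541). Of the microglia markers, *Cx3cr1* was edited in 1 library of each group (0.0143 and 0.0364), *C1qa* in 1 RPL22-STAMP library (0.0714) and the other one in none. The part of these cell types in the results was not tested. The summed EPR of the neuronal markers was 0.198 to 0.237 with RPL10A-STAMP and 0.170 to 0.201 with RPL22-STAMP. Within that list the EPR of the interneuron genes *Gad1* and *Gad2*, which make GABA, was lower with RPL10A-STAMP without overlap, as in 6.21% of the 8046 genes. Another 3 of the 9 were higher without overlap, as in 28.2% of the 8046. In the fit described further on, *Gad1* and *Gad2* were at log2 fold changes of -0.72 (limma adjusted p = 0.0639) and -0.54 (limma adjusted p = 0.0446). That fit is relative to the typical gene, and in it 3 of the 9 markers were positive and the list median was -0.10. The summed EPR of the astrocyte markers was 0.0996 to 0.131 and 0.0825 to 0.138. Of 8 proliferation genes none was edited in all 6 libraries, and *Mki67*, *Cdk1*, *Bub1* and *Aurkb* were at 0 throughout. The reads behind each EPR are unknown, so an EPR of 0 can mean no edits or too few reads, and no counting error can be given.

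*Slf1* encodes an ankyrin-repeat and BRCT-domain protein that links RAD18 to the SMC5/6 complex. The gene (ENSMUSG00000021597) lies on the minus strand of chromosome 13, from 77043088 to 77135473 (mm10). Its EPR was 0.111, 0.272 and 0.188 in the 3 RPL10A-STAMP libraries, and 0.00661, 0.00844 and 0.00380 in the 3 RPL22-STAMP libraries. The groups lay far apart, since the lowest RPL10A-STAMP value was 13.2 times the highest RPL22-STAMP value. The RPL10A-STAMP mean of 0.190 ± 0.0805 (SD, n = 3) was 30.3 times the RPL22-STAMP mean of 0.00628 ± 0.00234 (SD, n = 3). These are the values on which the gene was selected.

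The rank of *Slf1* among the 8046 genes describes its place in each group. The gene was selected on its high value with RPL10A-STAMP, so its high ranks there come with the choice. With RPL10A-STAMP its EPR was 9.29, 17.8 and 11.7 times the median of the library, ranking 109, 69 and 93 from the top. With RPL22-STAMP it was 0.728, 0.654 and 0.338 times the median, and 32.7%, 28.6% and 9.36% of the genes lay below it. *Slf1* was therefore a lowly edited gene in the RPL22-STAMP libraries and among the most edited in the RPL10A-STAMP libraries.

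**Figure D1:**
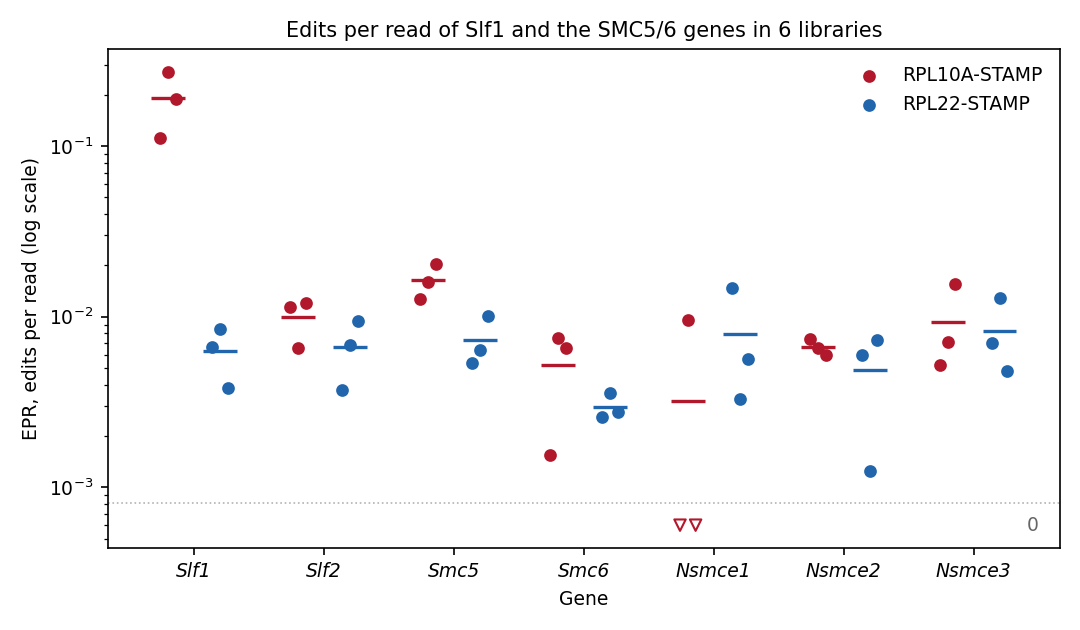
EPR (edits per read, log scale) of the 7 genes in each library, red for RPL10A-STAMP and blue for RPL22-STAMP, with horizontal bars at the mean of 3 libraries and open triangles under the dotted line for values of 0. The 3 RPL10A-STAMP values of *Slf1* lie at 0.111 or more, and no value of the other 6 genes is above 0.0203.

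Its partner *Slf2* did not share this pattern. *Slf2* encodes the protein that joins SLF1 to the SMC5/6 core, and lies on the plus strand of chromosome 19, 44931151 to 44983299. Its EPR was 0.0114, 0.00654 and 0.0120 with RPL10A-STAMP, against 0.00374, 0.00679 and 0.00942 with RPL22-STAMP. The groups overlapped, and a two-sided exact permutation test over the 6 libraries gave p = 0.3. With 3 libraries against 3 this test cannot give a p below 0.1. *Slf1* was 9.73, 41.7 and 15.7 times *Slf2* in the RPL10A-STAMP libraries and 1.77, 1.24 and 0.404 times *Slf2* in the RPL22-STAMP libraries, so in the latter the order of the pair turned between libraries.

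The ATPase arms differed from each other in level. *Smc5* (chromosome 19, minus strand, 23206451 to 23273897) had an EPR of 0.0127, 0.0161 and 0.0203 with RPL10A-STAMP, against 0.00534, 0.00641 and 0.0101 with RPL22-STAMP. It was the only one of the other 6 genes with no overlap between the groups, and its means, 0.0164 ± 0.00381 and 0.00729 ± 0.00250 (SD, n = 3 each), stood at a ratio of 2.25 (exact permutation test, p = 0.1, the smallest possible). Of all 8046 genes 28.2% also had every RPL10A-STAMP value above every RPL22-STAMP value, and 6.21% had every one below. *Smc6* (chromosome 12, plus strand, 11265886 to 11319785) had 0.00155, 0.00750 and 0.00660 with RPL10A-STAMP, against 0.00258, 0.00356 and 0.00276 with RPL22-STAMP. Its lowest value was in the first RPL10A-STAMP library and its highest in the second, so the groups overlapped (exact permutation test, p = 0.4).

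*Nsmce1*, the RING subunit, was the least steady gene (chromosome 7, minus strand, 125467640 to 125491596). It was at 0 in the first and the third RPL10A-STAMP library and at 0.00962 in the second, and in the RPL22-STAMP libraries it was 0.0147, 0.00331 and 0.00565 (exact permutation test, p = 0.5). *Nsmce3*, the MAGE subunit that binds NSMCE1, lies on the same chromosome (minus strand, 64867052 to 64872997) and was edited in every library. It had 0.00523, 0.00713 and 0.0156 with RPL10A-STAMP, against 0.00702, 0.0128 and 0.00482 with RPL22-STAMP, with overlapping groups (exact permutation test, p = 0.6). *Nsmce2*, the SUMO ligase (chromosome 15, plus strand, 59374247 to 59601684), had the narrowest spread with RPL10A-STAMP, at 0.00739, 0.00659 and 0.00596. With RPL22-STAMP it was 0.00596, 0.00125 and 0.00734, the second library lying low (exact permutation test, p = 0.5).

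EPR is counted per read of a gene and was not scaled to the number of C bases in it, so the order of genes within a library describes edits per read and nothing further. By mean EPR with RPL10A-STAMP the order was *Slf1* (0.190), *Smc5* (0.0164), *Slf2* (0.00999), *Nsmce3* (0.00933), *Nsmce2* (0.00665), *Smc6* (0.00522) and *Nsmce1* (0.00321). *Slf1* stood apart from *Smc5*, and the values of *Smc5* lay just above those of *Slf2*, while all later neighbours overlapped. With RPL22-STAMP the order ran from *Nsmce3* (0.00822) over *Nsmce1* (0.00789), *Smc5* (0.00729), *Slf2* (0.00665), *Slf1* (0.00628) and *Nsmce2* (0.00485) to *Smc6* (0.00296), and every pair of neighbours overlapped. Within single libraries *Slf1* ranked first of 7 in each RPL10A-STAMP library, at 8.74, 17.0 and 9.25 times the next gene, *Smc5*. In the RPL22-STAMP libraries it ranked 3, 2 and 6 of 7, and the highest gene was *Nsmce1*, *Nsmce3* and *Smc5* in turn.

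To set these genes against all others, each library was divided by its own median EPR and log2(EPR + 0.01) was fitted with limma over the 8046 genes edited in all 6 libraries. A log2 fold change on this scale is RPL10A-STAMP over RPL22-STAMP, relative to the typical gene, and is smaller than that of the EPR itself for lowly edited genes. Of the 8046 genes 14.3% were called at an adjusted p below 0.05, 8.51% as higher with RPL10A-STAMP and 5.77% as higher with RPL22-STAMP. Without the division the median over genes shifted on the log2 scale from -0.01 to 0.18, and the share of calls that were higher with RPL10A-STAMP from 59.6% to 88.1%.

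*Slf1* had a log2 fold change of 3.29 (SE 0.25), the second of 8046 after *Cdk17*, a PCTAIRE kinase (3.34), and before *Nup107*, a nuclear pore scaffold gene (2.93). None of the 5 other SMC5/6 genes tested was called in either direction. *Smc5* came nearest, at 0.41 (95% CI 0.05 to 0.76, limma adjusted p = 0.115), and was the 1 gene of the 5 with an unadjusted p below 0.05. *Slf2* was at 0.11 (95% CI -0.32 to 0.55, adjusted p = 0.718) and *Smc6* at 0.08 (95% CI -0.25 to 0.42, adjusted p = 0.727). *Nsmce2* was at 0.03 (95% CI -0.46 to 0.53, adjusted p = 0.930) and *Nsmce3* at -0.11 (95% CI -0.59 to 0.37, adjusted p = 0.760). The median of the 5 was 0.08 and that of all tested genes -0.01. These intervals leave room for differences of up to 0.76 on this scale, a limit that depends on the 0.01 added to EPR. With 0.001 added instead, *Smc5* was at 0.73 (limma adjusted p = 0.123). *Slf1*, selected on this contrast, was then at 4.32. *Nsmce1* was outside this fit because of its zeros, and with the filter widened to genes edited in at least 3 libraries it was at -0.62 (adjusted p = 0.393).

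**Figure D2:**
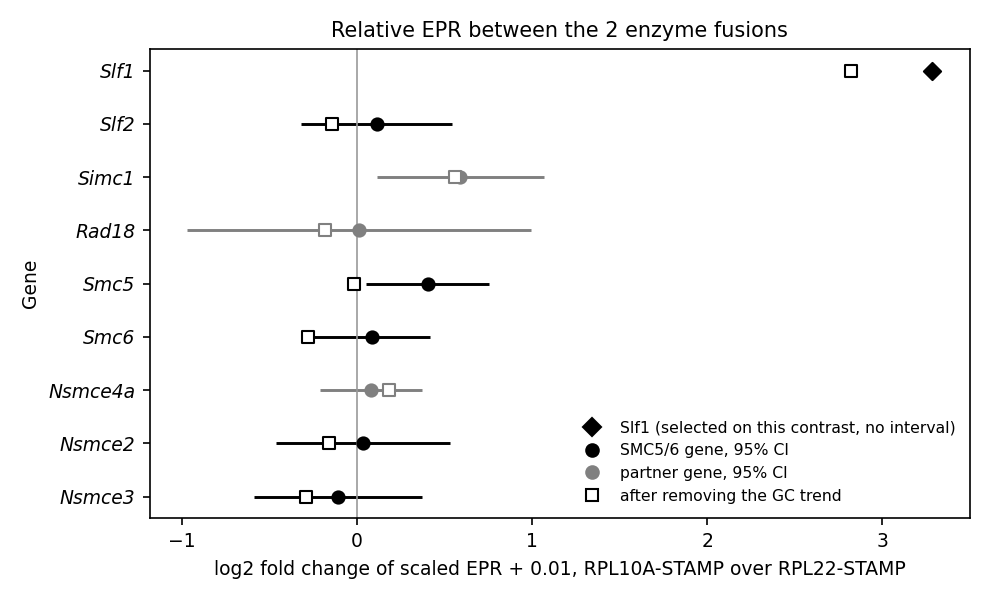
Log2 fold change of scaled EPR + 0.01, RPL10A-STAMP over RPL22-STAMP, for 6 of the 7 genes and 3 partner genes, with 95% confidence intervals from limma except for *Slf1*, which was selected on this contrast, and open squares for the value after the trend with GC content was removed. *Slf1* lies at 3.29 and *Rad18* has the widest interval, -0.97 to 0.99.

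Of 4 partner genes outside the 7, 3 could be tested and none of these was called. *Simc1* encodes a SUMO-binding protein that pairs with SLF2 in place of SLF1. Its EPR was 0.0220, 0.0145 and 0.0172 with RPL10A-STAMP, against 0.00514, 0.00474 and 0.00881 with RPL22-STAMP, without overlap (exact permutation test, p = 0.1). A separation in this direction was seen in 28.2% of the 8046 genes, and 0.1 is the lowest p that this test can reach. On the scaled log2 scale *Simc1* was at 0.59 (95% CI 0.11 to 1.07, limma adjusted p = 0.0984). It passed the threshold only where libraries were not scaled, at 0.78 (adjusted p = 0.0299).

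*Nsmce4a*, the bridge of the core, was low in all 6 libraries, with an EPR of 0.00269, 0.00694 and 0.00279 with RPL10A-STAMP, against 0.00163, 0.00263 and 0.00312 with RPL22-STAMP. Its log2 fold change was 0.08 (95% CI -0.21 to 0.37, limma adjusted p = 0.702). *Rad18*, the ubiquitin ligase that SLF1 reads, had 0.0276, 0.0121 and 0.0134 with RPL10A-STAMP, against 0.01, 0.0337 and 0.00463 with RPL22-STAMP. The second RPL22-STAMP library held the highest value and the third the lowest, and its log2 fold change of 0.01 had an interval from -0.97 to 0.99 (limma adjusted p = 0.990). *Eid3*, a paralog of *Nsmce4a*, was at 0 in all 6.

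Other SMC and repair genes were counted in the same fit. Cohesin with its loader and regulators had the most calls, 6 higher with RPL10A-STAMP and 0 lower among 11 genes tested of 13, with a median log2 fold change of 0.62 against -0.01 for all tested genes. Those 6 made up 54.5% of the 11, where 8.51% of all tested genes were called higher and 5.77% lower. The median GC content of the list was 42.3%, and of the tested genes with up to 44.5% GC 21.5% were called higher. The ring genes *Smc1a*, *Smc3* and *Rad21* were not called, at -0.11, 0.03 and 0.06. *Nipbl*, which loads cohesin on DNA, had an EPR of 0.0575, 0.0671 and 0.1003 with RPL10A-STAMP, against 0.00788, 0.00414 and 0.00528 with RPL22-STAMP. Its log2 fold change was 2.14 (SE 0.20, limma adjusted p = 0.00444). *Stag2* and *Stag1*, alternative subunits that bind the ring, were at 0.93 and 1.02 (limma adjusted p = 0.00531 and 0.0248), and *Pds5b*, which regulates its release, at 0.62 (limma adjusted p = 0.0189). After the trend with GC content was removed, 2 of the 6 calls were left, *Nipbl* and *Stag2*, and the median was 0.27. The number of calls also fell to between 2 and 3 when 1 library was left out, for each RPL10A-STAMP library and for the third RPL22-STAMP library.

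The 3 condensin genes tested of 8 had a median of 0.39, and none was called. In the SUMO pathway, which NSMCE2 serves, 1 of 15 genes tested was called, 6.67% against 14.3% of all tested genes called in either direction. This was *Ranbp2*, a SUMO ligase of the nuclear pore, with 0.0342, 0.0634 and 0.0585 against 0.0101, 0.00832 and 0.00651 and a log2 fold change of 1.47 (SE 0.19, limma adjusted p = 0.00521). The median of these 15 genes was 0.17. Of the DNA damage response genes 13 of 26 could be tested, 4 were higher with RPL10A-STAMP and 0 lower, and the median was 0.17. This was 30.8% of the 13 called higher, where the share over all tested genes was 8.51% higher and 5.77% lower.

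The 4 were the damage kinases *Atr* (2.35, limma adjusted p = 0.0146), *Atm* (1.14, adjusted p = 0.0313) and *Prkdc* (0.69, adjusted p = 0.0409) and the ATR activator *Topbp1* (0.98, adjusted p = 0.0173). *Atr* was the nearest of them to *Slf1* in level, with an EPR of 0.0954, 0.199 and 0.196 with RPL10A-STAMP, against 0.0222, 0.0308 and 0.00400 with RPL22-STAMP. Without the second or the third RPL10A-STAMP library none of the 4 was called, and without the first RPL22-STAMP library 2 were, *Atr* and *Topbp1*. The same pair passed the threshold with the GC trend removed. In that fit the end-joining gene *Xrcc4* was called lower, at -1.31 (limma adjusted p = 0.0354), as it was without the second RPL10A-STAMP library and, at -0.98 (limma adjusted p = 0.0471), with the replicate number as a block. With that block *Prkdc* was not called (adjusted p = 0.0764). Without the third RPL22-STAMP library *Atrip*, which brings ATR to DNA, was called lower, at -0.86 (adjusted p = 0.027), while *Atm* and *Prkdc* were not called.

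The 5 genes closest to *Slf1* over the 6 libraries, by the root mean square difference of scaled log2(EPR + 0.01), were *Zbtb11* (0.42), *Nup107* (0.46), *Pde3b* (0.51), *Npepps* (0.61) and *Dcaf1* (0.65) of 8045 compared. Their products are a zinc finger transcription factor, a nuclear pore scaffold protein, a cyclic nucleotide phosphodiesterase, a cytosolic aminopeptidase and a substrate receptor of a ubiquitin ligase. *Zbtb11* had an EPR of 0.0726, 0.170 and 0.133 with RPL10A-STAMP, against 0.0104, 0.00918 and 0.00345 with RPL22-STAMP. As in *Slf1*, its RPL10A-STAMP values were lowest in the first library and highest in the second, and its RPL22-STAMP values lowest in the third. The 5 genes were picked on these same values, so such likeness comes with the choice. *Nup107* had 0.136, 0.155 and 0.115 with RPL10A-STAMP, against 0.00415, 0.00727 and 0.00674 with RPL22-STAMP. When each gene was centred on its own mean, *Cdk17* took the place of *Npepps* among the 5. The other SMC5/6 genes tested ranked from 2897 (*Smc5*) to 7422 (*Smc6*) in likeness to *Slf1*, and from 1511 to 4628 after centring. These ranks are a description, because *Slf1* was selected on the values that the measure uses.

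**Figure D3:**
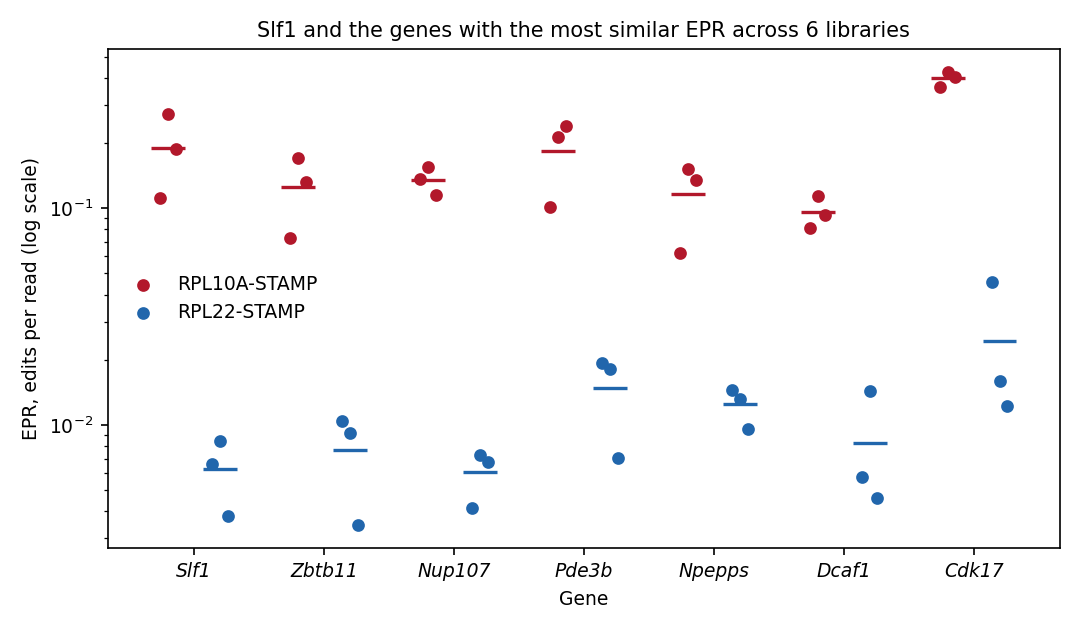
EPR (edits per read, log scale) of *Slf1* and of the genes with the smallest root mean square difference from it, before or after centring, in the 3 RPL10A-STAMP (red) and 3 RPL22-STAMP (blue) libraries, with bars at the means. Every RPL10A-STAMP value lies above every RPL22-STAMP value of the same gene, as in 28.2% of the 8046 genes tested. The genes were picked for likeness to *Slf1* on these same values, so this separation comes with the choice. *Cdk17* has the highest values, 0.364 to 0.426 with RPL10A-STAMP.

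The transcript of *Slf1* also stood at an edge in base composition. Taking for each gene the transcript with the longest coding sequence (GENCODE M21), *Slf1* had 3747 bases, of which 3165 are coding, 461 are 3′ UTR and 121 are 5′ UTR, in 21 exons. Its GC content was 37.5%, lower than in all but 1.28% of the tested genes (median 48.9%). Only 17.1% of its bases were C (median 23.9%), but 44.7% of these Cs had an A or T on each side, more than in 98.8% of the tested genes (median 29.4%). Counted on the transcript strand, this came to 286 such Cs, or 76.3 per kb (median 69.6), more than in 80.3% of the tested genes. APOBEC1 is known to prefer Cs in AT-rich surroundings.

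*Smc5* was close to *Slf1* in these features, with a GC content of 38.7% and 41.8% of its Cs between A or T. *Smc6* had 40.4% GC and 37.0% of Cs so placed, *Slf2* 43.1% and 38.2%, *Nsmce2* 44.5% and 29.5%, and *Nsmce3* 44.7% and 34.4%. *Nsmce1* was above the median in GC, at 52.7%, and had 24.5% of Cs so placed. Per kb of transcript, *Slf2* had 78.6 such Cs and *Nsmce3* 76.0, close to *Slf1*. *Smc5* had 69.9 per kb, *Smc6* 65.9, *Nsmce1* 59.8 and *Nsmce2* 59.7. *Nsmce3* has a single exon, of which 5027 of 5946 bases are 3′ UTR, whereas the coding sequences of *Slf1*, *Slf2*, *Smc5* and *Smc6* run from 3165 to 3492 bases.

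Over all tested genes the log2 fold change fell with GC content, from a median of 0.38 in the tenth of genes with the lowest GC to -0.32 in the tenth with the highest. Among the 2010 genes with the lowest GC, up to 44.5%, the median was 0.27 and 21.5% were called higher with RPL10A-STAMP. After a spline on GC content was removed from each library, *Slf1* was at 2.82, the third of 8039 genes. *Smc5* was then at -0.02 (limma adjusted p = 0.948) and *Smc6* at -0.28 (adjusted p = 0.202). Neither gene was called with or without the GC trend. Whether base composition has a part in the values of *Slf1* or *Smc5* was not tested.

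**Figure D4:**
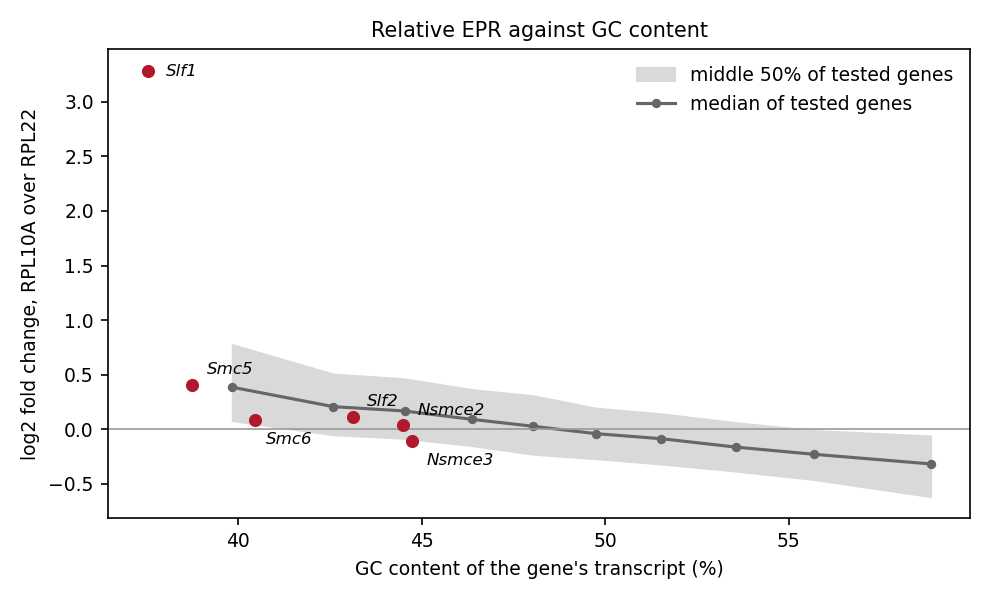
Log2 fold change of scaled EPR + 0.01, RPL10A-STAMP over RPL22-STAMP, against the GC content of each gene's transcript, as the median (line) and middle 50% (band) of the tested genes in 10 bins of equal size and as points for the 6 genes tested. *Slf1*, at 37.5% GC, lies at 3.29, whereas the median of the lowest bin is 0.38.

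Few other places that could share reads with these genes were found. The search with the *Slf1* transcript found no match elsewhere in the GRCm38 genome at 95% identity or more. That transcript holds 3747 of the 5881 annotated exon bases of *Slf1*, and short matches could be missed, so shared reads are not excluded. No exon of another annotated gene overlapped the exons of *Slf1*. For *Smc6* 1 stretch of 127 bases had an identical copy on chromosome 4. *Slf2* shared 253 exon bases, 3.38% of its exon length, with the antisense gene *4930414N06Rik*, which has no value of its own in the files. For the other 4 genes no copy was found, and they had no shared exon base. Editing within *Slf1* could not be placed, since the files give 1 value per gene.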

How the data were processed

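Bulk RNA-seq libraries of cortical neurons were analysed, 3 for each of RPL10A-STAMP and RPL22-STAMP. Per the methods and the labels, the authors made poly(A)-selected stranded libraries, aligned single-end reads to mm10 with STAR, keeping reads with several locations, called edits with SAILOR, counted reads with featureCounts and deposited, for each gene and library, the ratio of edits to reads, with no scaling between libraries. The annotation they used is not given in the sources used here. The ratio does not hold edits or reads, so depth is unknown and no count model or interval for counting error was used. The methods call the libraries biological replicates and the paper's text calls them technical, so p-values may measure technical spread only.

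The 7 genes, the gene lists and the tests were chosen with earlier results of these data known. Gene IDs were named through GENCODE M21 (31011 of 31053). EPR was scaled by bringing the median of the 8046 genes with EPR above 0 in all 6 libraries to the same value, the geometric mean over libraries. log2(EPR + 0.01) was fitted with limma 3.58.1 (R 4.3.3) with a variance trend and Benjamini-Hochberg adjustment over all 8046 genes (threshold 0.05). The script was tested on data simulated with independent normal noise on the log2 scale. That test has no bearing on depth, zeros or the kind of replicate. For single genes other than *Slf1*, deposited EPR went into an exact permutation test, two-sided (scipy 1.17.1). For each of the 7 genes the transcript with the longest coding sequence was searched in GRCm38 with BLAST 2.17.0. Named genes were the 7, all 4 partner genes, up to 4 called genes of each other list by adjusted p, the 5 most like *Slf1* by each measure and genes that overlap a member's exons. The cohesin ring genes, *Xrcc4*, *Atrip*, *Senp2*, *Ncapd3*, the markers and the genes beside *Slf1* in rank were named in addition, after their values were seen. Alternatives changed the pseudocount (0.001, 0.1), the scaling, the filter, the variance trend, the replicate number as a block, the GC or length trend (spline of 4 degrees of freedom) and the libraries, each left out in turn. After scaling, the deviations of single genes hardly correlated between same-numbered libraries (correlations 0.04, 0.05 and -0.01). Scaling removes shifts shared by all genes of a library, so whether the numbers pair the libraries cannot be told from this.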

Additional observations from a re-analysis of the deposited data

How the results depend on the processing

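*Slf1* was selected on the contrast between the fusions, so its values and ranks under the alternatives are a description. Its log2 fold change was positive in all 15 alternatives. It was 4.32 with a pseudocount of 0.001, 1.27 with 0.1, 2.82 with the GC trend removed and 3.01 to 3.49 with 1 library left out. Its rank by log2 fold change was 16 and 28 under the wider filters, which admit genes at 0 in some libraries, and 1 to 6 under the other 13 alternatives. None of the other 6 genes was called in any alternative that tested it. With the GC trend removed, *Slf2* was at -0.14, *Smc5* at -0.0192, *Smc6* at -0.28, *Nsmce2* at -0.16 and *Rad18* at -0.18. Without scaling *Nsmce3* was at 0.0719, and with a pseudocount of 0.1 *Rad18* was at -0.00734. With 1 library left out the values ran from -0.0041 to 0.25 for *Slf2*, -0.0105 to 0.23 for *Smc6*, -0.20 to 0.16 for *Nsmce2*, -0.27 to 0.0142 for *Nsmce3*, -0.0288 to 0.149 for *Nsmce4a* and -0.35 to 0.40 for *Rad18*.

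Of all genes 1149 were called, against 754 with genes edited in at least 3 libraries, 569 with those edited in at least 1, 603 with the replicate number as a block, 663 with the GC trend removed and 369 to 873 with 1 library left out. The cohesin count was 3 under both wider filters and under the replicate block, 2 with the GC trend removed and 2 to 4 with 1 library left out. The DNA damage count was 2 and 0 under the wider filters, all higher, and 0 to 3 with 1 library left out, of which 1 was called lower without the second RPL10A-STAMP library (*Xrcc4*) and 1 without the third RPL22-STAMP library (*Atrip*). The SUMO count was 2, with *Senp2* added, with a pseudocount of 0.1, without scaling and without the variance trend. Without scaling 1 partner gene, *Simc1*, and 1 condensin gene, *Ncapd3*, were called, and with 1 library left out the condensin count was 0 to 1. The causes of these changes were not tested, and the wider filters took in 10909 and 12811 genes. Depth is unknown, so the precision of a single EPR cannot be stated.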
